A study of Oikopleura dioica with 67 samples.

Results

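The ubiquitin-conjugating enzymes and ubiquitin ligases of the appendicularian tunicate Oikopleura dioica were followed from the unfertilized egg to the juvenile, in adult females and males, and in the animal and vegetal hemispheres. Members were the unigenes (assembled transcript models) whose deposited symbol belongs to 1 of 10 families. The rule reads the symbol and no measured value, but it was set with earlier results of these data known. They numbered 154 of 19277 unigenes, of which 10122 carried a symbol. The families were 27 E2 conjugating enzymes, 7 cullin scaffolds, 2 RBX RING subunits, 2 SKP adaptors, 16 F-box receptors and 11 subunits or coactivators of the anaphase-promoting complex (APC/C). The remaining ligases were 9 HECT or HERC, 49 RNF, 24 TRIM and 7 MARCH unigenes. The 154 unigenes carried 104 symbols, and 27 symbols stood on more than 1 unigene, told apart here by a letter added after the symbol. Reads can be split among unigenes that share a symbol, so the level of any of those 77 unigenes is uncertain. A second set of symbols deposited for the same unigenes differed for 33 members, of which 31 would fall outside the rule, 11 of them because they have no second symbol. Symbols were taken as deposited, and whether the unigenes are orthologues of their namesakes was not tested.

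Ubiquitin is activated by an E1 enzyme, passed to an E2 conjugating enzyme and joined to a substrate by an E3 ligase. RING ligases (RNF, TRIM, MARCH and the RBX subunits) bring a charged E2 to the substrate, whereas HECT ligases first take the ubiquitin onto themselves. Cullins are scaffolds that hold a RING subunit at one end and a substrate receptor, such as an F-box protein docked through SKP1, at the other. In animal eggs and embryos the system is known for clearing maternal proteins and for driving the cell cycle, where APC/C with CDC20 marks cyclins and securin for destruction at anaphase.

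All animals were wild type, of a Japanese population bred for many generations in the laboratory at 20 °C. Embryos hatch at 3 hours after fertilization (hpf) and have a functional body by 10 hpf. The staged set held 43 libraries from a strand-specific kit, with 3 libraries for each of 13 stages (unfertilized egg, fertilized egg, 2-, 4-, 8-, 16- and 32-cell embryo, 1.5 hpf embryo, 2.5 hpf tadpole, 3 hpf hatched larva, 5 hpf and 8 hpf organogenesis, and 10 hpf juvenile), 2 for adult females and 2 for adult males. The hemisphere set held 24 libraries from a kit that does not keep strand, at the 8-cell stage and at 12 hpf. At each time 4 libraries, numbered 3 to 6, came from the animal hemisphere, 4 from the vegetal hemisphere and 4 from whole embryos. How the hemispheres were isolated is not given, and every library carries the tissue label embryo, adults included.

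Values are RPKM, reads per kilobase of transcript scaled to library size. Libraries held 7785352 to 95644620 reads, of which 18.93% to 49.03% aligned, in the staged set. Differences were tested with limma on log2(RPKM + 1), which understates the change of low unigenes, with Benjamini-Hochberg adjustment over all unigenes tested. A member rose or fell where the adjusted p was under 0.05, and each ± beside a log2 difference is the standard error of that fit. The labels do not say that libraries of a group came from separate animals or batches of embryos, and 16 of the 43 staged libraries carry an unexplained "Re" mark, so p-values measure only the spread between these libraries. All juvenile libraries carry that mark and no hatched, 32-cell, tadpole or adult library does. Staged libraries were sequenced on 4 lanes, and the 32-cell stage shared no lane with the egg, nor the tadpole with the egg, nor the juvenile with the hatched larva. In bulk RNA, fewer cells of a type and less RNA per cell cannot be told apart.

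Some libraries of a stage differed widely among themselves. For Rbx1-a, the RING subunit of cullin ligases, the 3 egg libraries read 678, 123 and 133 RPKM. For HUWE1-a, a very large HECT ligase, the same 3 libraries read 6.47, 46.9 and 56.2 RPKM. Egg library 1 was therefore the highest for the small protein's transcript and the lowest for the long one, and 3 hpf library 1 stood apart in the same manner, with 3.78, 23.4 and 26.9 RPKM of HUWE1-a and 183, 38.2 and 48.1 RPKM of Rbx1-a over its 3 libraries. Egg library 1 was also the only egg library on its lane and the only egg library with the "Re" mark. The 3 hpf libraries shared a lane and none carried the mark. The part of lane or mark in these values was not tested. Among the hemisphere libraries, whole embryo 8-cell number 6 held 9493 unigenes at 1 RPKM or more where the other 11 libraries at that stage held 7821 to 8145. Vegetal number 3 at 12 hpf was the lowest of its group for many members, such as TRIM4 and Fbxo16. It was the highest of that group for others, such as CDC34, Cdc27-a, TRIM2-b and TRIM2-c.

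The family was already present in the egg. Of the 154 members, 100 (64.9%) reached 1 RPKM in every egg library, against 37.7% of all unigenes. In every library of at least 1 of the 13 stages, 137 (89.0%) reached it, against 85.1%. Of the 148 members tested in the staged set, 67 (45.3%) had their highest stage mean between egg and 32-cell, against 24% of all unigenes tested. A further 34 (23%, against 19.4%) were highest between 1.5 and 3 hpf, and 47 (31.8%, against 56.5%) between 5 and 10 hpf. The early share was 6 of 7 for cullins, 18 of 26 for E2 enzymes and 7 of 11 for APC/C, whereas it was 14 of 45 for RNF, 7 of 23 for TRIM and 4 of 16 for F-box unigenes. Levels differed among the 13 stages for 141 of the 148 members (95.3%), against a background of 92.9% of all unigenes tested.

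**Figure D1:**
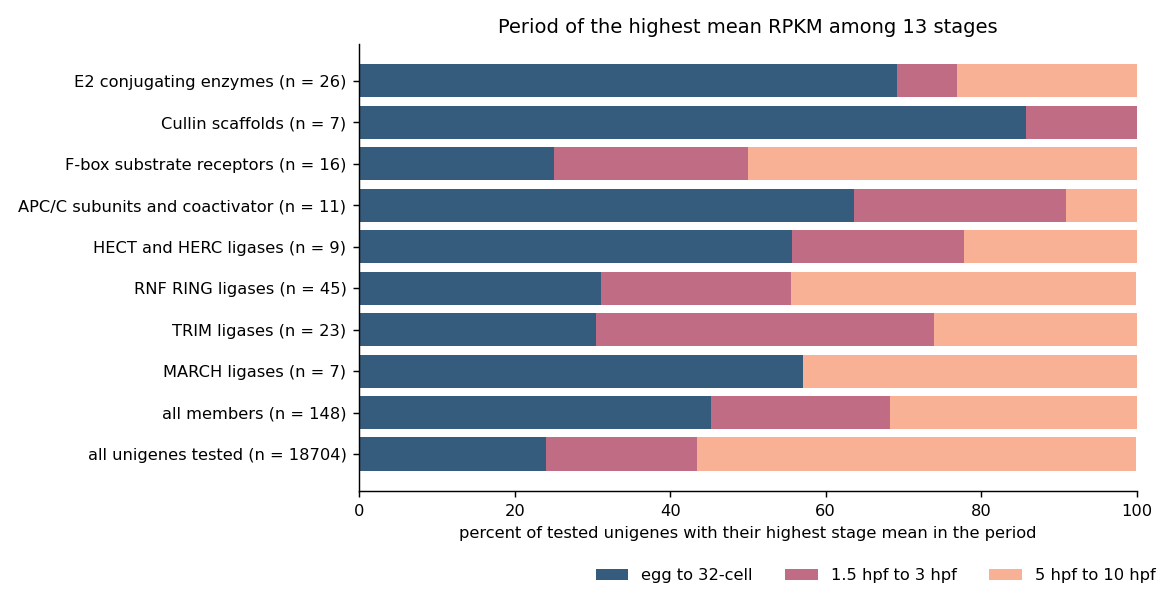
Share of tested unigenes (percent) whose highest stage mean fell between egg and 32-cell, between 1.5 and 3 hpf, or between 5 and 10 hpf, for each family and for all unigenes tested. The early share is 69.2% for E2 enzymes and 85.7% for cullins, against 24% for all unigenes.

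Between egg and 32-cell embryo, 52 of 148 members differed, 10 higher and 42 lower. That is 35.1% of them, against a background of 15.6% of all unigenes tested, of which 3.13% were higher and 12.5% lower. With quantile normalization the split was 12 higher and 19 lower, and with sequencing lane as a term 4 members passed, 2 in each direction. The count was 26 without egg library 2, 30 without egg library 3 and 33 without 32-cell library 3. Only CDC34, RNF11 and Ube2h passed under all 12 alternatives tried for this comparison. The members that fell between egg and 32-cell also differed between the 2 sets at a shared stage: for 37 of the 42, all 4 whole-embryo 8-cell libraries stood above all 3 staged 8-cell libraries, against 29 of the 106 other members and a background of 23.8% of all unigenes. The sets were normalized separately and made with different kits, so that difference was not tested and the part of library preparation in it cannot be told apart. The 42 were chosen for low levels in staged cleavage libraries, which favours low staged 8-cell levels as well. The background was not limited to unigenes that fell, and some other members were undetected at 8-cell in both sets and could not separate. These shares therefore cannot tell whether the difference is particular to the 42.

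From 32-cell to 1.5 hpf, 29 members differed, 16 higher and 13 lower, or 19.6%, against 14.5% of all unigenes (11.5% higher and 3.01% lower). Quantile normalization gave 10 higher and 19 lower, and the fit of the compared libraries only gave 45 higher and 18 lower. Between egg and tadpole, 48 differed, 18 higher and 30 lower, or 32.4%, against 24.4% of all unigenes (13.6% higher and 10.8% lower), and with lane as a term the counts were 14 and 62. Between hatched larva and juvenile, 68 differed, 23 higher and 45 lower, or 45.9%, against 58% of all unigenes (34.9% higher and 23.1% lower). For that comparison quantile normalization gave 13 and 63, whereas lane as a term gave 25 and 15. Members called under every alternative numbered 17 of 29, 24 of 48 and 17 of 68 in these 3 comparisons.

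E2 enzymes held some of the most abundant transcripts of the family. UBE2C, the E2 that starts chains for APC/C, read 615, 536 and 635 RPKM in eggs and 1061, 1015 and 1261 RPKM in 32-cell embryos. It was still at 468, 387 and 379 RPKM in hatched larvae and then at 22.9, 23.6 and 26.4 RPKM in juveniles. The juvenile libraries were all far below the hatched ones (log2 difference -4.02 ± 0.25, adjusted p = 5.2e-16), a fall called under every alternative tried.

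CDC34, the E2 that works with SCF ligases, showed the largest fall of any member between egg and tadpole. Its egg libraries read 306, 285 and 293 RPKM, its 32-cell libraries 65.1, 25.6 and 30.9 RPKM, its 1.5 hpf libraries 3.56, 11.3 and 6.72 RPKM and its tadpole libraries 2.80, 2.70 and 6.23 RPKM. No library of one of these 4 stages overlapped the next except between 1.5 hpf and tadpole. The fall was -2.95 ± 0.44 on the log2 scale from egg to 32-cell (adjusted p = 8.1e-06), -2.34 ± 0.44 from 32-cell to 1.5 hpf (adjusted p = 0.000147) and -5.99 ± 0.44 from egg to tadpole (adjusted p = 2.5e-13). Hatched larvae were at 9.22, 21.3 and 13.9 RPKM and juveniles at 1.08, 0.811 and 0.592 RPKM, a further fall (log2 difference -3.05 ± 0.44, adjusted p = 3.6e-07). In the separately normalized hemisphere set, whole embryos at the 8-cell stage read 253, 193, 183 and 321 RPKM, while the staged 8-cell libraries read 44.3, 40.5 and 23.5 RPKM.

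Ube2n, which builds non-degradative chains with a UBE2V partner, was called lower at 1.5 hpf and in tadpoles. Eggs read 152, 263 and 283 RPKM and 32-cell embryos 198, 225 and 181 RPKM, with overlap. Levels were 82.9, 53.7 and 64.6 RPKM at 1.5 hpf (log2 difference -1.59 ± 0.35, adjusted p = 0.00111) and 22.6, 22.8 and 22.1 RPKM in tadpoles (log2 difference -3.26 ± 0.35, adjusted p = 2.6e-09 against eggs). Ube2a, the RAD6 homologue that ubiquitinates histone H2B with RNF20, went up before it went down. Its values were 282, 183 and 223 RPKM in eggs, 549.6, 479 and 585 RPKM at 32-cell and 141, 129 and 169 RPKM at 1.5 hpf, with no overlap between neighbouring groups, and the second difference was -1.87 ± 0.32 (adjusted p = 2.9e-05). The first step was 1.24 ± 0.32 (adjusted p = 0.00617), with an adjusted p of 0.803 once lane was a term and of 0.0554 without egg library 2 (adjusted p from 0.00302 to 0.803 over 12 alternatives).

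Ube2h was 1 of 3 E2 enzymes to rise in cleavage. It read 28.2, 37.7 and 39.6 RPKM in eggs and 182, 127 and 164 RPKM at 32-cell (log2 difference 2.13 ± 0.30, adjusted p = 2.9e-06), and all 32-cell libraries were above all egg libraries. Over the E2 family, 3 of 26 rose and 11 fell between egg and 32-cell (quantile 5 and 4, lane as a term 1 and 1), and 1 rose and 10 fell between egg and tadpole (quantile 2 and 9). Of all unigenes tested, 3.13% rose and 12.5% fell by 32-cell, and 13.6% rose and 10.8% fell by the tadpole.

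UBE2Q2 and UBE2J2-c were lower at 32-cell than in eggs and than at 1.5 hpf. UBE2Q2 was at 16.4, 25.3 and 33.7 RPKM in eggs, 3.08, 2.68 and 0.867 RPKM at 32-cell and 19.7, 40.6 and 18.4 RPKM at 1.5 hpf. The 32-cell libraries lay below both neighbours, and the rise was 3.07 ± 0.43 (adjusted p = 1.1e-06). UBE2J2-c, named after an E2 of the endoplasmic reticulum membrane, was at 6.39, 13.5 and 17.4, then 2.93, 2.03 and 0.585, then 19.5, 23.3 and 18.9 RPKM, a rise of 3.01 ± 0.42 in the second step (adjusted p = 9.7e-07). In both, the fall from egg to 32-cell was lost with lane as a term (adjusted p = 0.0779 and 0.344) and that of UBE2J2-c also with quantile normalization (adjusted p = 0.384; adjusted p from 6.7e-05 to 0.384 over 12 alternatives), whereas the rise to 1.5 hpf was called under every alternative, one of which left out 1.5 hpf library 2 and so kept both stages on 1 lane. Staged 8-cell means of UBE2Q2 and UBE2J2-c were 7.76 and 8.54 RPKM. Whole embryos of the separately normalized hemisphere set had 8-cell means of 36.8 and 27.9 RPKM.

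**Figure D2:**
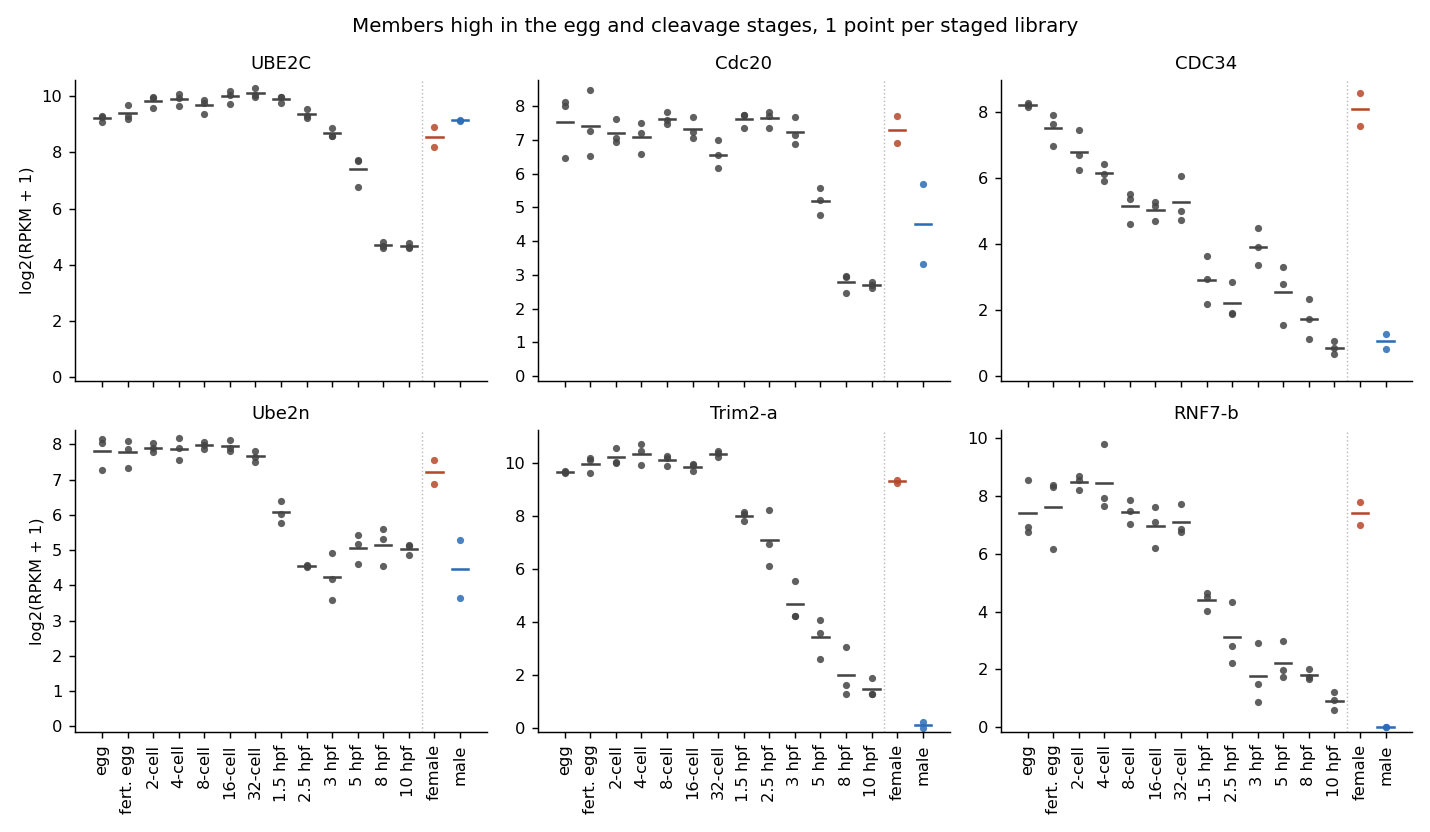
Level, as log2(RPKM + 1), in each staged library of UBE2C, Cdc20, CDC34, Ube2n, Trim2-a and RNF7-b, from egg to juvenile and in adults, with 1 point per library and a bar at the mean of each group. CDC34 drops from 285 to 306 RPKM in eggs to 3.56 to 11.3 RPKM at 1.5 hpf, whereas UBE2C and Cdc20 stay high until hatching and are low in juveniles.

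Of 7 cullin scaffolds, 4 fell between egg and 32-cell and none rose (quantile 3 and 0, and none in either direction with lane as a term). The shares of all unigenes tested were 12.5% lower and 3.13% higher. CUL1-a, of the scaffold of SCF ligases, read 5.32, 17.7 and 21.02 RPKM in eggs and 0.414, 0.179 and 0.542 RPKM at 32-cell (log2 difference -3.33 ± 0.69, adjusted p = 0.000796). CUL1-c gave near parallel values, 5.98, 19.9 and 22.7 and 0.464, 0.268 and 0.496 RPKM (log2 difference -3.43 ± 0.70, adjusted p = 0.000605), and reads shared between both cannot be told apart. Cul2, the scaffold used with elongins and von Hippel-Lindau protein, was at 7.56, 38.9 and 43.3 and 1.24, 1.80 and 1.79 RPKM (log2 difference -3.25 ± 0.71, adjusted p = 0.00132). Egg and 32-cell libraries did not overlap for any of the 3, but none passed with lane as a term (adjusted p = 0.564, 0.606 and 0.84; adjusted p from 0.000193 to 0.564 over 12 alternatives, for the first). At the 8-cell stage the staged means of CUL1-a, CUL1-c and Cul2 were 0.60, 0.69 and 4.43 RPKM. Whole embryos of the separately normalized hemisphere set had 8-cell means of 18.3, 24.1 and 20.6 RPKM.

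CUL5, which with elongins carries SOCS-box receptors, read 80.9, 133 and 139 RPKM in eggs and 97.4, 160.4 and 99.4 RPKM at 32-cell, with overlap, then 63.2, 55.9 and 68.9 RPKM at 1.5 hpf and 33.6, 54.7 and 33.4 RPKM in tadpoles. The tadpoles lay below all eggs (log2 difference -1.51 ± 0.32, adjusted p = 0.000325).

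RNF7, the RING partner of CUL5, was represented by unigenes with opposite timing. RNF7-b read 376, 120.3 and 107 RPKM in eggs and 208, 107 and 116 RPKM at 32-cell. It was at 15.3, 21.6 and 24.01 RPKM at 1.5 hpf (log2 difference -2.72 ± 0.59, adjusted p = 0.000813) and at 3.70, 19.3 and 6.01 RPKM in tadpoles (log2 difference -4.28 ± 0.59, adjusted p = 3.8e-07 against eggs). RNF7-c was listed at 0 in all eggs and 32-cell embryos, at 0.592, 1.75 and 37.2 RPKM in hatched larvae, at 38.5, 33.1 and 36.2 RPKM at 5 hpf and at 8.92, 12.8 and 10.5 RPKM in juveniles. Rnf7-a, which the second symbol set calls Roc1a after the fly RBX1, was listed at 0 in every egg, 32-cell, 1.5 hpf and tadpole library, at 0, 0.0756 and 1.74 RPKM in hatched larvae and at 3.99, 4.20 and 4.63 RPKM in juveniles (log2 difference 1.88 ± 0.24, adjusted p = 2.7e-08). Over the family, 17 of the 27 symbols on more than 1 member had unigenes with their highest stage means in different periods.

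SKP1-b, of the adaptor that ties F-box proteins to CUL1, read 23.02, 20.8 and 21.8 RPKM in eggs and 20.2, 19.03 and 9.58 RPKM in hatched larvae. In juveniles it was at 2.77, 1.999 and 1.89 RPKM, below every hatched library (log2 difference -2.37 ± 0.45, adjusted p = 3.4e-05). SKP1-a did not pass in that comparison, at 100.1, 124 and 116 and 82.3, 123 and 121 RPKM.

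F-box receptors split in time. FBXW7-b, named after the receptor of cyclin E and Notch, was under 1 RPKM in every egg, 32-cell, 1.5 hpf, tadpole and hatched library, at 12.1, 2.97 and 4.17 RPKM at 8 hpf and at 6.51, 4.10 and 4.08 RPKM in juveniles (log2 difference 2.14 ± 0.29, adjusted p = 7.7e-08). FBXW7-a was expressed throughout, with 42.4, 42.9 and 40.1 RPKM in eggs, 28.9, 90.5 and 81.2 RPKM in hatched larvae and 14.1, 17.3 and 23.7 RPKM in juveniles. That last step of FBXW7-a was called (log2 difference -1.68 ± 0.38, adjusted p = 0.000266), with an adjusted p of 0.24 with lane as a term (adjusted p from 8.7e-07 to 0.24 over 12 alternatives). Fbxo8 was lower in tadpoles than in eggs and higher in juveniles than in hatched larvae: 3.05, 13.1 and 12.9 RPKM in eggs, 0.554, 0 and 0.625 RPKM in tadpoles (log2 difference -2.76 ± 0.41, adjusted p = 1.9e-06) and 20.6, 15.2 and 11.4 RPKM in juveniles (log2 difference 2.12 ± 0.41, adjusted p = 4.5e-05 against hatched larvae).

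Fbxo43, known in vertebrate eggs as the APC/C inhibitor EMI2, read 3.45, 19.1 and 17.9 RPKM in eggs, 6.66, 36.002 and 44.8 RPKM in hatched larvae and 1.59, 2.60 and 4.45 RPKM in juveniles. The juvenile fall (log2 difference -2.67 ± 0.59, adjusted p = 0.000236) was lost with lane as a term, where the adjusted p was 0.0689 (adjusted p from 4.3e-09 to 0.0689 over 12 alternatives). FBXL13, named after a protein of the ciliary dynein regulatory complex, was at most 1.71 RPKM in hatched larvae and at 4.09, 2.63 and 3.49 RPKM in juveniles (log2 difference 1.59 ± 0.44, adjusted p = 0.00252). That call was lost with quantile normalization, where the adjusted p was 0.284 (adjusted p from 1.8e-10 to 0.284 over 12 alternatives). Of 16 F-box unigenes, 5 rose and 5 fell between hatched larva and juvenile (quantile 5 and 6, lane as a term 3 and 1), against 34.9% and 23.1% of all unigenes.

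Of 11 APC/C unigenes, 5 fell and none rose between hatched larva and juvenile (quantile 7 and 0, lane as a term 3 and 0), and 5 fell and 1 rose between egg and 32-cell (quantile 2 and 0, lane as a term 1 and 0). For all unigenes tested the shares were 23.1% lower and 34.9% higher in the first comparison, and 12.5% and 3.13% in the second. Cdc20, the mitotic coactivator, read 87.4, 259 and 278 RPKM in eggs, 229, 163 and 211 RPKM in tadpoles, 141, 204 and 117 RPKM in hatched larvae and 5.15, 5.87 and 5.48 RPKM in juveniles. The last step was the steepest fall of any member in that comparison (log2 difference -4.54 ± 0.46, adjusted p = 1.5e-10), and it was called under every alternative. Cdc27-a, a tetratricopeptide-repeat subunit, was at 76.8, 84.3 and 42.98 and 14.2, 15.7 and 21.1 RPKM at those stages (log2 difference -1.90 ± 0.47, adjusted p = 0.000793), a call lost with lane as a term (adjusted p = 0.137; adjusted p from 0.000131 to 0.137 over 12 alternatives). Of 22 tested unigenes for APC/C substrates and checkpoint proteins, a list outside the family, 19 fell and none rose between hatched larva and juvenile, against 23.1% and 34.9% of all unigenes. Their median log2 difference was -2.21, against 0.10 for all unigenes. Counts of this list with quantile normalization or with lane as a term are not given, and these stages shared no lane.

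Within the complex, the catalytic RING subunit was called higher and the scaffold lower at 32-cell than in eggs. Anapc11, the RING subunit, read 124, 27.7 and 33.4 RPKM in eggs and 131, 127 and 145 RPKM at 32-cell (log2 difference 1.44 ± 0.50, adjusted p = 0.0435). ANAPC1, the largest scaffold subunit, was at 2.20, 11.3 and 10.3 RPKM in eggs and 0.0407, 0.165 and 0.0609 RPKM at 32-cell (log2 difference -2.81 ± 0.34, adjusted p = 1.6e-07), and ANAPC2, its cullin-like partner, at 16.4, 56.3 and 58.5 and 7.20, 3.60 and 5.06 RPKM (log2 difference -2.67 ± 0.45, adjusted p = 4.8e-05). Egg library 1 was the highest for Anapc11 and the lowest for the other two, and leaving it out gave log2 differences of 2.11 (adjusted p = 0.00192), -3.44 (adjusted p = 2.6e-10) and -3.26 (adjusted p = 3e-06). With lane as a term the adjusted p was 1 for Anapc11, 0.0425 for ANAPC1 and 0.434 for ANAPC2. Anapc11 was also lost without egg library 2, without egg library 3 and without any 1 of the 32-cell libraries (adjusted p from 0.00138 to 1 over 12 alternatives). At the 8-cell stage the staged means of Anapc11, ANAPC1 and ANAPC2 were 86.3, 0.205 and 9.41 RPKM. Whole embryos of the separately normalized hemisphere set had 8-cell means of 82.2, 1.44 and 47.8 RPKM.

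Of 9 HECT and HERC unigenes, 5 fell between egg and 32-cell and none rose (quantile 2 and 0, and none in either direction with lane as a term). Among all unigenes tested, 12.5% fell and 3.13% rose. HUWE1-a read 6.47, 46.9 and 56.2 RPKM in eggs and 4.55, 3.65 and 3.19 RPKM at 32-cell (log2 difference -2.52 ± 0.78, adjusted p = 0.0242), and Herc4 21.4, 33.7 and 34.9 and 3.22, 4.59 and 1.45 RPKM (log2 difference -2.97 ± 0.46, adjusted p = 1.4e-05). Neither passed with lane as a term, with adjusted p = 1 and 0.0745 (adjusted p from 8.7e-06 to 0.0745 over 12 alternatives, for Herc4). HUWE1-a was also lost without egg library 2 or 3 and without any 1 of the 32-cell libraries, with adjusted p from 0.00174 to 1 over 12 alternatives. HUWE1-a and Herc4 had staged 8-cell means of 9.59 and 8.93 RPKM. Their whole-embryo 8-cell means in the separately normalized hemisphere set were 28.7 and 25.5 RPKM. UBE3C-b, called HUL5 in the second set after the yeast proteasome-bound ligase, rose from 0.509, 2.20 and 0.19 RPKM at 32-cell to 10.5, 7.70 and 8.20 RPKM at 1.5 hpf (log2 difference 2.44 ± 0.68, adjusted p = 0.0107), a call lost with quantile normalization (adjusted p = 0.0507) and without 32-cell library 3 (adjusted p = 0.0709; adjusted p from 0.00109 to 0.0709 over 12 alternatives). Ube3a-b, named after the ligase of Angelman syndrome, stood at 0.383, 1.71 and 2.16 RPKM in hatched larvae and 3.32, 2.98 and 3.17 RPKM in juveniles (log2 difference 0.87 ± 0.29, adjusted p = 0.00996). Its log2 difference was -0.07 with quantile normalization and 0.51 without hatched library 1, and neither passed (adjusted p from 0.0023 to 0.877 over 12 alternatives).

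RNF ligases held both maternal and embryonic transcripts. RNF19A, an RBR-type ligase, read 105, 68.5 and 74.9 RPKM in eggs, 115, 110.2 and 124 RPKM at 32-cell and 27.9, 21.01 and 18.1 RPKM at 1.5 hpf, where all libraries were below all 32-cell ones (log2 difference -2.35 ± 0.32, adjusted p = 5.3e-07). RNF126, which in mammals acts in protein quality control, read 36.1, 20.1 and 20.7 RPKM in eggs, 109, 102 and 130.02 RPKM at 32-cell and 83.96, 100.1 and 75.7 RPKM in tadpoles. It was higher than in eggs both times (2.15 and 1.76 on the log2 scale), the second under every alternative and the first with adjusted p = 0.191 when lane was a term (adjusted p from 4.6e-06 to 0.191 over 12 alternatives). RNF11 rose from 11.9, 14.4 and 15.8 to 57.005, 74.7 and 54.9 RPKM (log2 difference 2.07 ± 0.32, adjusted p = 1.5e-05) and was at 18.01, 19.3 and 17.9 RPKM at 1.5 hpf (log2 difference -1.69 ± 0.32, adjusted p = 0.000168), so its 32-cell libraries stood above both neighbours.

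RNF32, a RING protein, came on at 1.5 hpf. No egg or 32-cell library exceeded 0.377 RPKM, 1.5 hpf libraries were at 4.47, 6.29 and 6.06 RPKM (log2 difference 2.50 ± 0.34, adjusted p = 5.6e-07) hatched larvae at 3.21, 11.2 and 19.9 RPKM and 5 hpf larvae at 25.9, 28.6 and 21.4 RPKM. Rnf138, which in mammals acts in DNA repair, was at 0.31, 0.219 and 0.337 RPKM in eggs, 4.22, 3.14 and 6.22 RPKM in tadpoles (log2 difference 2.06 ± 0.28, adjusted p = 2.6e-07) and 0.946, 1.93 and 1.83 RPKM in juveniles, below all hatched libraries (log2 difference -1.35 ± 0.28, adjusted p = 9.2e-05). RNF149-b showed the largest juvenile rise of the family, from 2.66, 1.12 and 2.81 RPKM in hatched larvae to 18.6, 18.4 and 18.4 RPKM (log2 difference 2.65 ± 0.38, adjusted p = 2.8e-07). RNF113A, a splicing-linked RING protein, went the other way, from 15.6, 67.8 and 39.7 to 2.79, 4.34 and 8.21 RPKM (log2 difference -2.65 ± 0.71, adjusted p = 0.00188), a call lost with lane or with the "Re" mark as a term (adjusted p = 0.424 and 0.0995; adjusted p from 1.9e-06 to 0.424 over 12 alternatives). Of 45 RNF unigenes, 10 rose and 11 fell between hatched larva and juvenile, 4 and 13 with quantile normalization and 11 and 2 with lane as a term. Of all unigenes tested, 34.9% rose and 23.1% fell between these stages.

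TRIM ligases included the most abundant maternal ligase transcript. Trim2-a, which the second symbol set calls nhl-1 after a nematode gene, read 807, 827 and 794 RPKM in eggs and 1388, 1194 and 1329 RPKM at 32-cell. It was at 222, 264 and 279 RPKM at 1.5 hpf (log2 difference -2.35 ± 0.42, adjusted p = 6.1e-05), 45.8, 17.5 and 17.6 RPKM in hatched larvae and 1.396, 2.69 and 1.43 RPKM in juveniles (log2 difference -3.18 ± 0.42, adjusted p = 5.2e-08 for the last step). Both falls were called under every alternative. TRIM37-b, whose human namesake acts at peroxisomes and centrosomes, was at 90.2, 102 and 82.9 RPKM at 32-cell and 16.6, 20.3 and 31.2 RPKM at 1.5 hpf (log2 difference -2.01 ± 0.39, adjusted p = 0.000221). TRIM65 was maternal at 5.05, 18.3 and 16.2 RPKM in eggs and 0, 1.74 and 0.0848 RPKM in tadpoles (log2 difference -3.13 ± 0.48, adjusted p = 3.3e-06).

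TRIM25 and Trim33-b were low up to the 32-cell stage and rose by 1.5 hpf. TRIM25, whose mammalian namesake acts in RIG-I signalling and which had no second symbol, read 0.463, 0.306 and 0.371 RPKM at 32-cell, 11.2, 12.4 and 21.01 RPKM at 1.5 hpf (log2 difference 3.47 ± 0.32, adjusted p = 1.3e-10) and 51.4, 26.5 and 60.998 RPKM in tadpoles (log2 difference 4.84 ± 0.32, adjusted p = 1.6e-14 against eggs). Trim33-b, named after a Smad-linked chromatin regulator of vertebrates, read 0.172, 0.199 and 0.689 RPKM at 32-cell and 13.9, 12.9 and 16.3 RPKM at 1.5 hpf (log2 difference 3.52 ± 0.33, adjusted p = 1.6e-10). Both were lower again in the juvenile, TRIM25 at 9.34, 12.4 and 12.2 RPKM (log2 difference -1.47 ± 0.32, adjusted p = 0.0002) and Trim33-b at 4.595, 4.03 and 2.65 RPKM (log2 difference -2.53 ± 0.33, adjusted p = 4.3e-08), with no overlap with hatched larvae.

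Trim54, whose vertebrate namesake is a muscle RING-finger protein, was at 0.0576, 0.0508 and 0.0521 RPKM in eggs, 6.43, 3.64 and 17.9 RPKM in tadpoles and 8.59, 169 and 44.9 RPKM in hatched larvae. The tadpole difference from the egg (log2 difference 3.04 ± 0.68, adjusted p = 0.000673) was lost with lane as a term (adjusted p = 0.38; adjusted p from 6.6e-07 to 0.38 over 12 alternatives). Over the same stages the summed level of a list of 73 muscle unigenes was 387 to 408 RPKM in eggs and 9465 to 11250 RPKM in hatched larvae, and its part in the Trim54 values was not tested. Of 23 TRIM unigenes, 3 rose and 10 fell between hatched larva and juvenile, 0 and 15 with quantile normalization and 3 and 3 with lane as a term. The shares of all unigenes tested were 34.9% higher and 23.1% lower.

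**Figure D3:**
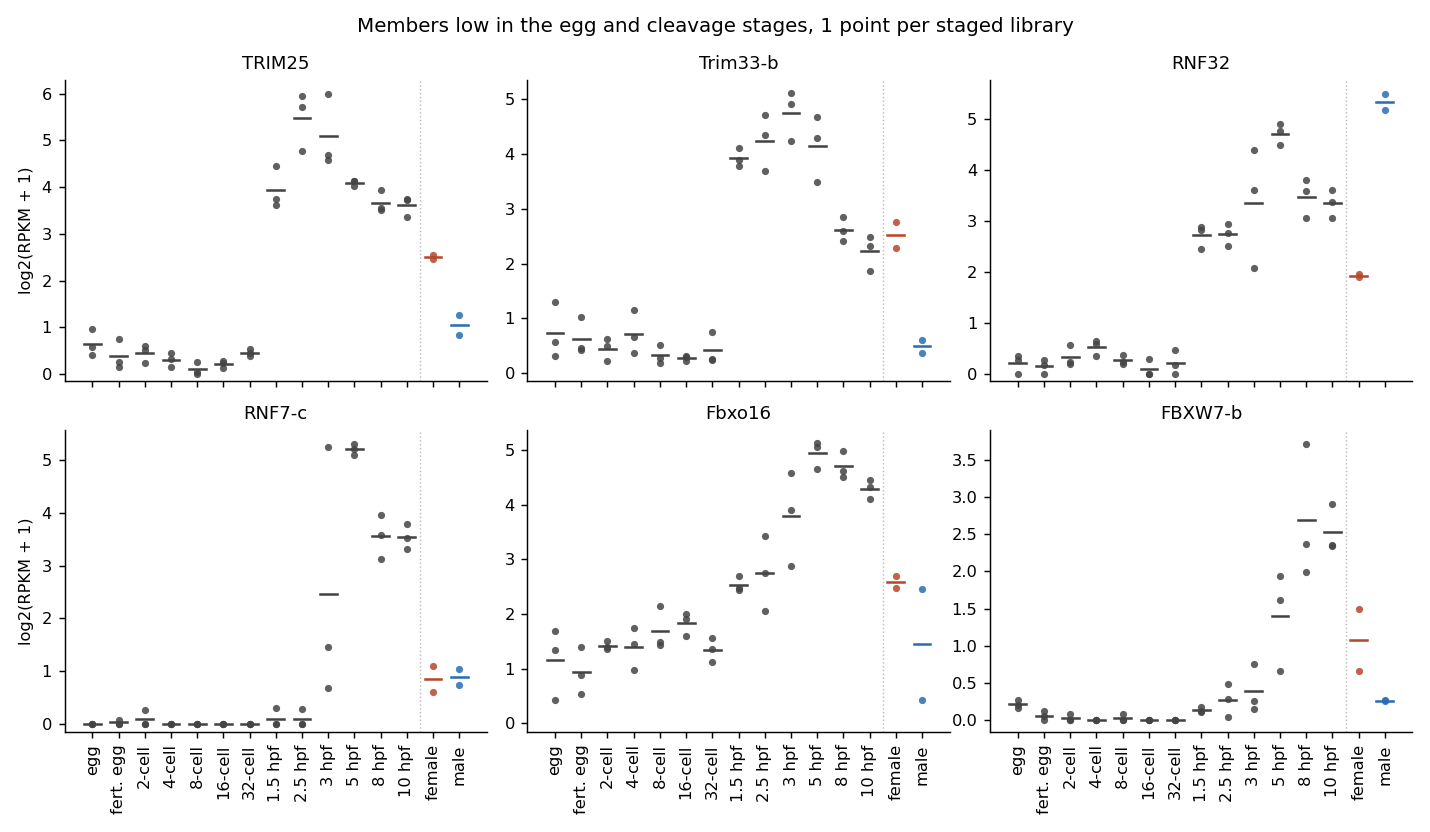
Level, as log2(RPKM + 1), in each staged library of TRIM25, Trim33-b, RNF32, RNF7-c, Fbxo16 and FBXW7-b, from egg to juvenile and in adults, with 1 point per library and a bar at the mean of each group. TRIM25, Trim33-b and RNF32 reach at most 1.46 RPKM in eggs and 32-cell embryos and at least 4.47 RPKM in every 1.5 hpf library, whereas RNF7-c has its highest mean at 5 hpf and FBXW7-b at 8 hpf.

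Of the MARCH ligases, which sit in membranes, MARCH6-a, named after the ligase of the endoplasmic reticulum, read 42.1, 45.7 and 49.3 RPKM in eggs and 9.54, 6.24 and 6.55 RPKM in tadpoles (log2 difference -2.49 ± 0.40, adjusted p = 6e-06). March5-a, named after the mitochondrial ligase, was at 66.2, 45.8 and 48.7 RPKM in eggs and 9.70, 6.80 and 8.61 RPKM in tadpoles (log2 difference -2.54 ± 0.38, adjusted p = 2.1e-06). Egg and tadpole libraries did not overlap for either, and both calls held under every alternative. March5-b, in contrast, was higher at 32-cell (37.98, 26.3 and 34.1 RPKM) than in eggs (22.5, 10.4 and 9.10 RPKM; log2 difference 1.26 ± 0.39, adjusted p = 0.022), but the call was lost without egg library 2 or 3, without 32-cell library 1 or 3 and with lane as a term (adjusted p from 0.00323 to 1 over 12 alternatives).

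Adult females and males were all sequenced on 1 lane, with 2 libraries each. Of 148 members, 91 were higher and 8 lower in females, against a background of 40.2% of all unigenes higher and 6.61% lower, and 46.8% either way. With quantile normalization, which moved the median log2 difference of all unigenes from 0.73 to -0.04, the counts were 51 and 18. Under all 10 alternatives 39 of the higher and 4 of the lower calls held. All 11 APC/C unigenes were higher in females (quantile 7), as were 22 of 26 E2 enzymes with 2 lower (quantile 14 and 2), 14 of 23 TRIM unigenes (quantile 7) and 5 of 7 cullins (quantile 4). RNF counts were 24 higher and 2 lower of 45, and 11 and 7 with quantile normalization.

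The members named first here also read high in eggs. Trim2-a read 649.5 and 609.99 RPKM in females and 0.172 and 0 RPKM in males (log2 difference 9.19 ± 0.51, adjusted p = 7.3e-17). CDC34 read 190.5 and 381 and 1.44 and 0.763 RPKM (log2 difference 7.03 ± 0.54, adjusted p = 3.9e-13), and CUL5 119 and 116 and 1.24 and 1.09 RPKM (log2 difference 5.77 ± 0.39, adjusted p = 1.1e-14). All 3 calls held under every alternative. RNF7-b read 219.6 and 127 RPKM in females and was listed at 0 in both male libraries (adjusted p = 1.2e-10), as were TRIM65, with 22.1 and 60.6 RPKM in females (adjusted p = 3.5e-09), and Rnf128, with 14.999 and 19.7 RPKM (adjusted p = 6.9e-08). RNF20, the partner of Ube2a on histone H2B, read 33.98 and 81.6 RPKM in females and 1.37 and 0.369 RPKM in males (log2 difference 4.90 ± 0.91, adjusted p = 2.4e-05).

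A smaller group was high in males. Ube2r2-b, a paralogue of CDC34, read 538 and 349.9 RPKM in males, 1.72 and 4.80 RPKM in females and at most 8.70 RPKM in any of the 39 libraries of the 13 stages. Its female minus male difference was -6.78 ± 0.48 (adjusted p = 4.3e-14). SKP1-a read 719.9 and 954 RPKM in males and 166 and 128 RPKM in females (log2 difference -2.50 ± 0.33, adjusted p = 8.5e-08). FBXO36 was at 27.6 and 49.97 and 2.01 and 2.56 RPKM (log2 difference -3.54 ± 0.36, adjusted p = 2.7e-10), and RNF32 at 35.1 and 43.9 and 2.72 and 2.86 RPKM (log2 difference -3.41 ± 0.42, adjusted p = 1.7e-08). These 4 were lower in females under all 10 alternatives.

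The remaining 4 male-high calls were less firm. Ube2a, at 633 and 441 RPKM in males and 181 and 144 RPKM in females, and RNF170-a, at 66.6 and 27.6 and 9.38 and 4.53 RPKM, were called as well but lost when only the libraries of both sexes were fitted (adjusted p = 0.0595 and 0.0585; adjusted p from 0.000327 to 0.0595 over 10 alternatives, for Ube2a). Rbx1-b read 245 and 283 RPKM in males and 69.99 and 53.1 RPKM in females (log2 difference -2.09 ± 0.72, adjusted p = 0.0152). Leaving out female library 2 or male library 2 ended that call, and so did quantile normalization. HERC1, at 12.7 and 9.66 and 2.41 and 3.24 RPKM (log2 difference -1.66 ± 0.56, adjusted p = 0.0127), was lost without female library 1 and without male library 1. The log2 differences without 1 library ran from -2.29 to -1.90 for Rbx1-b and from -1.84 to -1.49 for HERC1.

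The male libraries also differed from each other. For ANAPC10, a substrate-binding APC/C subunit, females were at 47.6 and 43.6 RPKM and males at 28.9 and 1.39 RPKM (log2 difference 2.46 ± 0.77, adjusted p = 0.00748), and for Cdc20 they were at 119 and 207 and 50.9 and 9.12 RPKM (log2 difference 2.79 ± 0.56, adjusted p = 7.6e-05). Leaving out 1 library moved the ANAPC10 log2 difference between 0.64 and 4.28, and the call was lost without male library 2 and with quantile normalization (adjusted p = 0.606). Without the same library the Cdc20 log2 difference was 1.61, and it passed. UBE2C, at 288 and 482 RPKM in females and 558 and 566 RPKM in males, and Rbx1-a, at 193 and 84.4 and 303 and 43.99 RPKM, did not pass.

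Marker lists checked the sexes. The summed level of 26 sperm unigenes was 12070 to 14640 RPKM in males and 128 to 220.3 RPKM in females, where 1 of the 26 was at 0 and 7 were under 1 RPKM in both libraries, and 16 of the 26 were lower in females with 7 higher. The summed level of 6 egg and germ line unigenes was 133 to 239 RPKM in females and 3.38 to 53.01 RPKM in males, with 4 of 6 higher in females. The summed muscle level was 21440 to 34910 RPKM in males and 690.5 to 718 RPKM in females, although 27 of the 73 muscle unigenes were called higher in females and 1 lower, with a median log2 difference of 0.89 against 0.73 for all unigenes. Their part in the difference between the sexes was not tested. Beyond the family, 31 of 39 deubiquitinases, 52 of 74 other ligases, 14 of 18 unigenes for E1 enzymes and ubiquitin and 40 of 64 cullin adaptors and regulators were higher in females, with 1, 0, 0 and 3 lower. Over all unigenes tested, 40.2% were higher and 6.61% lower, and counts of these lists with quantile normalization are not given.

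**Figure D4:**
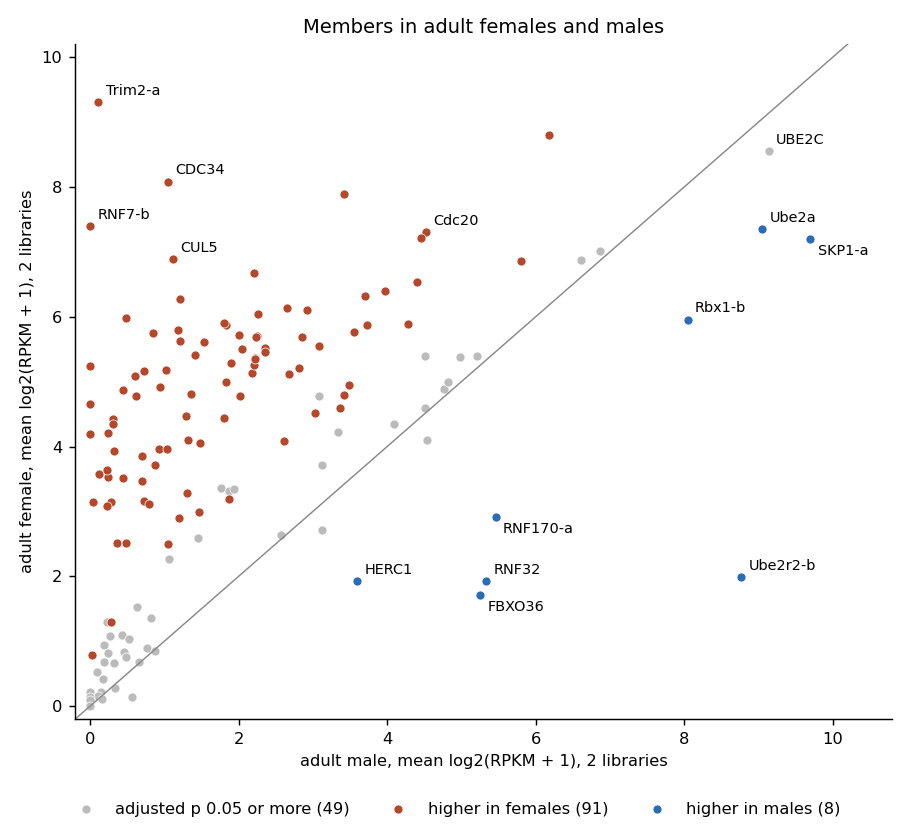
Mean log2(RPKM + 1) of each tested member in adult males (horizontal) and adult females (vertical), 2 libraries each, with members called higher or lower in females marked. Most points lie above the diagonal of equal level, with Trim2-a, RNF7-b and CDC34 far above and Ube2r2-b far below it.

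The 2 hemispheres of the 8-cell embryo differed for 1 of 147 members tested, against a background of 0.401% of all unigenes. It was also the only member with an unadjusted p under 0.05 by limma, a threshold passed by 1.12% of all unigenes. That share is smaller than the threshold itself, so the p-values of this fit are strict. The fit left out the pairing of libraries by number. Members that did not pass are therefore not shown to be equal in both hemispheres. With the number as a block, 1 member passed after adjustment. The member was Rnf128, named after a membrane-bound RING ligase known from mouse T cells as GRAIL. It read 1.15, 2.30, 1.65 and 3.81 RPKM in animal and 53.5, 40.9, 41.4 and 38.7 RPKM in vegetal hemispheres, with 29.7, 9.70, 14.8 and 26.9 RPKM in whole embryos (log2 difference 3.84 ± 0.39, adjusted p = 1.3e-06). Every vegetal library was above every animal one, and all 14 alternatives kept the call. In the staged set Rnf128 was at 19.5, 5.29 and 5.37 RPKM in eggs and 26.4, 21.4 and 35.1 RPKM at 1.5 hpf (log2 difference 1.85 ± 0.45, adjusted p = 0.003 from 32-cell, lost with quantile normalization at adjusted p = 0.138; adjusted p from 0.00249 to 0.138 over 12 alternatives). At 12 hpf it was at 0.336, 0, 0 and 0 RPKM in animal and 0.522, 4.77, 3.44 and 1.41 RPKM in vegetal hemispheres (log2 difference 1.53 ± 0.39, adjusted p = 0.00223), a call lost with quantile normalization, where the adjusted p was 0.257 (adjusted p from 1.7e-05 to 0.257 over 14 alternatives). On the log2(RPKM + 1) scale the hemisphere difference was smaller at 12 hpf than at 8-cell (log2 difference -2.31 ± 0.56, adjusted p = 0.00211, interaction), but with a pseudocount of 0.1 RPKM it was -0.55 and did not pass (adjusted p = 0.694; adjusted p from 5e-04 to 0.694 over 21 alternatives).

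At 12 hpf, 51 of 147 members differed between the hemispheres, 40 higher and 11 lower in the vegetal one, or 34.7%, against a background of 48.2% of all unigenes (32.9% higher and 15.3% lower). Quantile normalization, which moved the median log2 difference of all unigenes from 0.30 to -0.20, gave 26 higher and 30 lower. With quantile normalization, RNF unigenes went from 15 higher and 2 lower to 9 and 8, and TRIM unigenes from 8 and 3 to 5 and 6. The difference between the stages was called for 37 members, 30 more vegetal and 7 more animal at 12 hpf than at 8-cell (25.2%, against 35.6% of all unigenes, 24.6% more vegetal and 11% more animal; 16 and 17 with quantile normalization). Of the 51 calls at 12 hpf, 30 held under every alternative, 26 of them higher and 4 lower. Libraries of the same number deviated together, and with the number as a block 71 members passed, 54 higher and 17 lower; Ube2n, Cdc16 and Cdc27-c passed only then, and SKP1-a, ANAPC2, Cul2 and CUL1-a also passed when certain single libraries were left out, and CUL1-a with quantile normalization.

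The largest vegetal differences were among unigenes near 0 in the animal hemisphere. TRIM4, which the second symbol set calls traf6-b, read 0, 0.102, 0 and 0 RPKM in animal and 9.25, 78.2, 78.01 and 92.7 RPKM in vegetal hemispheres at 12 hpf (log2 difference 5.59 ± 0.52, adjusted p = 2.8e-09). Vegetal number 3 was far below its other 3 libraries, and whole embryos read 15.9, 8.14, 28.1 and 4.72 RPKM. Rnf7-a read 0, 0, 1.18 and 0.471 RPKM in animal and 7.97, 39.1, 45.5 and 25.9 RPKM in vegetal hemispheres (log2 difference 4.27 ± 0.37, adjusted p = 9.2e-10). RNF7-c was listed at 0 in all 4 animal libraries and at 6.70, 17.2, 19.3 and 15.4 RPKM in the vegetal ones (adjusted p = 4.5e-11), with 22.4, 40.4, 49.5 and 24.4 RPKM in whole embryos. CUL5, the scaffold partner of RNF7, was at 4.88, 5.17, 6.63 and 5.12 RPKM in animal and 13.4, 24.9, 10.8 and 17.1 RPKM in vegetal hemispheres (log2 difference 1.39 ± 0.29, adjusted p = 0.00035).

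RNF41-a and RNF41-d, 2 of 12 unigenes named after a ligase of ErbB receptors, were higher in the vegetal hemisphere, whereas Rnf41-j was called on the other side, at 0, 3.32, 10.1 and 19.7 RPKM in animal and 0, 0, 0 and 0.189 RPKM in vegetal hemispheres (log2 difference -2.43 ± 0.55, adjusted p = 0.000681), with overlap at 0. RNF41-a, called rag1 in the second symbol set, was present at 8-cell at 16.1, 41.8, 33.3 and 16.2 RPKM in animal and 17.1, 36.2, 61.01 and 20.95 RPKM in vegetal hemispheres. At 12 hpf it was at 0, 0.656, 0.585 and 0.465 and 8.57, 42.04, 29.95 and 24.3 RPKM (log2 difference 4.09 ± 0.54, adjusted p = 8.9e-07). RNF41-d was at most 0.649 RPKM in every 8-cell library, and at 0.323, 0, 0 and 0 RPKM in animal and 3.61, 19.5, 21.9 and 16.5 RPKM in vegetal hemispheres at 12 hpf (log2 difference 3.70 ± 0.39, adjusted p = 2.4e-08).

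Of 16 F-box unigenes, 5 were higher and 1 lower in the vegetal hemisphere at 12 hpf, and 4 and 3 with quantile normalization. The shares of all unigenes tested were 32.9% and 15.3%. Fbxo16 read 6.57, 10.05, 9.62 and 11.5 RPKM in animal and 75.8, 134, 147 and 155 RPKM in vegetal hemispheres, with no overlap (log2 difference 3.60 ± 0.38, adjusted p = 2.6e-08). FBXO36, the male-high receptor, read 2.63, 3.29, 1.47 and 1.48 and 15.5, 25.1, 29.1 and 20.5 RPKM (log2 difference 2.88 ± 0.32, adjusted p = 4.5e-08). FBXW7-a read 31.5, 28.4, 32.4 and 8.29 and 85.2, 120.2, 176 and 95.1 RPKM (log2 difference 2.31 ± 0.43, adjusted p = 8.3e-05). All 3 were also more vegetal than at 8-cell by the interaction test (log2 difference 3.54 ± 0.54, adjusted p = 1.2e-05 for Fbxo16).

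TRIM71-a, named after the heterochronic regulator LIN-41 of nematodes, read 0.567, 0, 2.51 and 0.665 RPKM in animal and 7.35, 20.7, 13.9 and 17.6 RPKM in vegetal hemispheres (log2 difference 3.10 ± 0.31, adjusted p = 1e-08). Ube3a-b read 0.633, 0.984, 0.812 and 0.576 and 5.06, 10.3, 9.07 and 8.33 RPKM (log2 difference 2.36 ± 0.22, adjusted p = 2.9e-09). The muscle-type ligase Trim54 read 0.562, 0, 0 and 0.777 and 3.48, 6.09, 5.42 and 15.9 RPKM (log2 difference 2.57 ± 0.31, adjusted p = 1.7e-07), and Fbxo40, whose mammalian namesake is a receptor of striated muscle, 0, 0, 0.178 and 0.479 and 1.48, 4.22, 7.10 and 9.49 RPKM (log2 difference 2.33 ± 0.32, adjusted p = 1.3e-06). Groups did not overlap for any of these 4, and all 4 calls held under every alternative.

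Fewer members were higher in the animal hemisphere. TRIM2-c read 58.5, 89.8, 113 and 53.5 RPKM in animal and 32.04, 10.5, 7.21 and 20.2 RPKM in vegetal hemispheres (log2 difference -2.25 ± 0.43, adjusted p = 0.000109), without overlap and under every alternative, and 99.2, 124, 72.7 and 62.4 RPKM in whole embryos. Cdc27-a was at 51.4, 17.1, 26.2 and 27.9 and 17.7, 7.04, 8.13 and 8.82 RPKM, where vegetal number 3 and animal number 4 overlapped (log2 difference -1.45 ± 0.44, adjusted p = 0.00796). CDC34 read 17.2, 29.4, 8.37 and 17.9 RPKM in animal and 16.4, 1.89, 1.63 and 5.74 RPKM in vegetal hemispheres (log2 difference -1.69 ± 0.42, adjusted p = 0.00157), overlapping through vegetal number 3, and was lost when only these 2 groups were fitted. TRIM2-b, low throughout, was at 0.209, 0.527, 0.564 and 0.449 and 0.0973, 0, 0 and 0 RPKM (log2 difference -0.48 ± 0.16, adjusted p = 0.0148) and was likewise lost. Trim33-b read 4.95, 4.76, 18.4 and 4.65 and 2.63, 2.79, 3.94 and 3.07 RPKM (log2 difference -0.94 ± 0.35, adjusted p = 0.0281). Without animal number 5, its highest library, the log2 difference was -0.51 and the call was lost, as it was without vegetal number 3 or 4 (adjusted p from 0.00252 to 0.152 over 14 alternatives). UBE2C, at 94.4, 135, 105 and 70.2 and 115, 176, 129 and 119 RPKM, and Cdc20, at 26.1, 20.1, 42.2 and 24.3 and 21.2, 29.1, 32.2 and 25.4 RPKM, did not pass, with log2 differences of 0.43 and -0.02.

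Summed levels of the marker lists differed between the hemispheres at 12 hpf. The summed muscle level was 4189 to 8309 RPKM in vegetal and 1724 to 2963 RPKM in animal hemispheres, and 12370 to 17360 RPKM in whole embryos. Of 56 muscle unigenes tested, 42 were higher and 4 lower in the vegetal hemisphere, and 22 of the 73 were listed at 0 in all animal libraries. The summed level of 92 gut unigenes was 3422 to 10080 RPKM in vegetal and 799.5 to 968 RPKM in animal hemispheres, with 28 higher and 15 lower of 63 tested. For the 26 sperm unigenes the levels were 500.3 to 1087 and 60.9 to 97.3 RPKM, with 15 of 18 tested higher. That list does not mark sperm alone, since only 2 of the 26 were under 1 RPKM in every 3 hpf hatched-larva library. For the 6 egg and germ line unigenes they were 444 to 891 and 33.1 to 51.8 RPKM, with 3 of 6 higher. Their part in the differences among ligases was not tested. The other ubiquitin lists gave 17 higher and 4 lower of 65 other ligases, 23 and 7 of 62 cullin adaptors and regulators, 4 and 1 of 36 deubiquitinases and 3 and 0 of 18 unigenes for E1 enzymes and ubiquitin. Over all unigenes tested, 32.9% were higher and 15.3% lower. Counts of these lists with quantile normalization are not given.

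**Figure D5:**
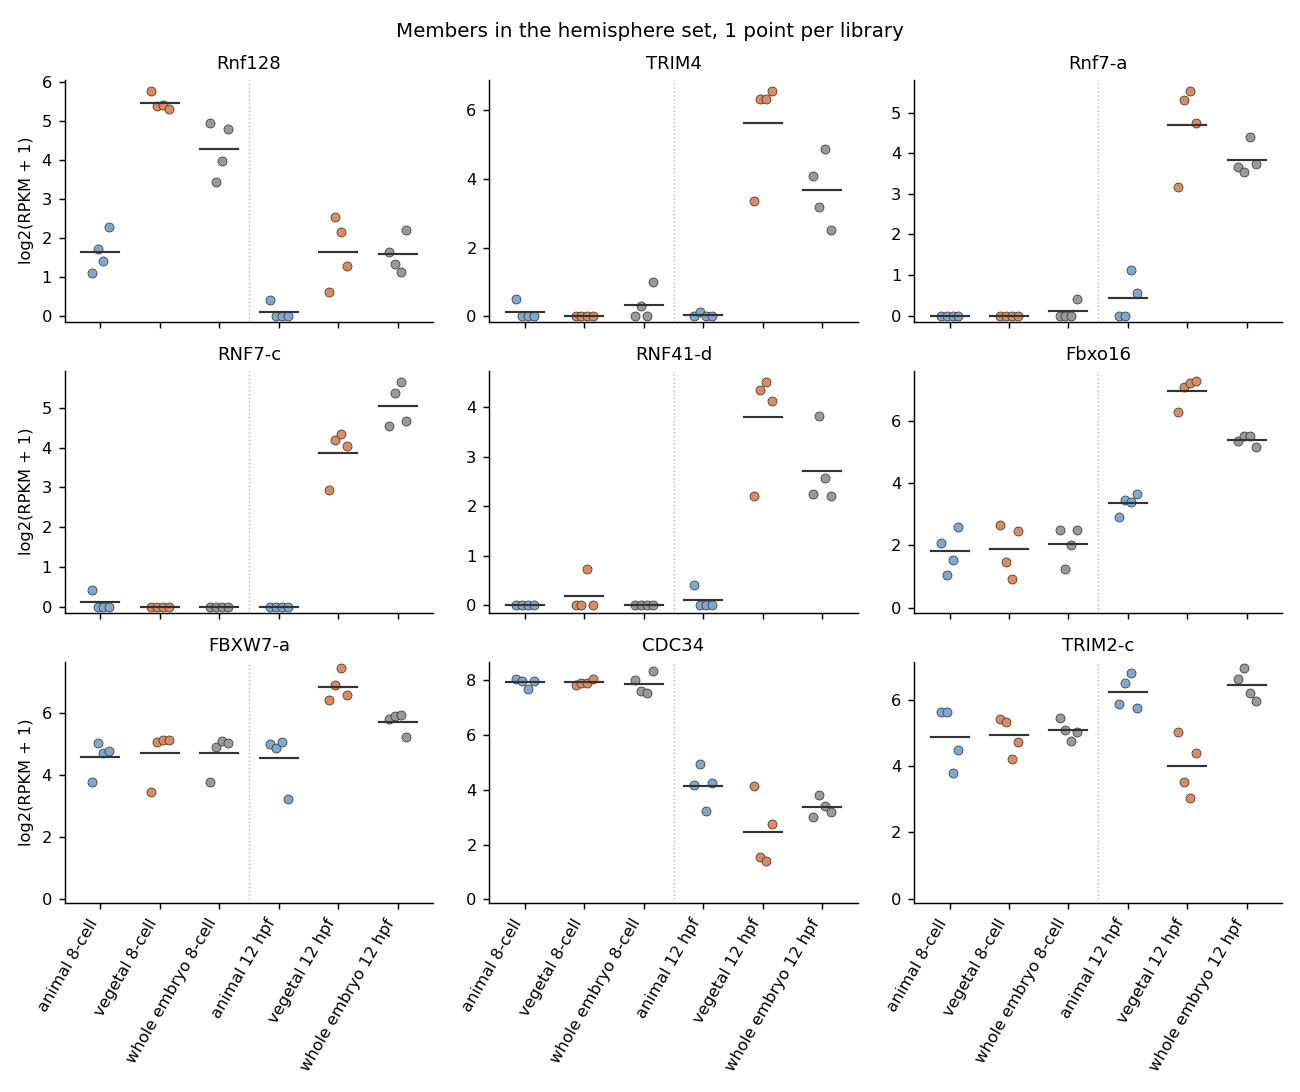
Level, as log2(RPKM + 1), in each animal, vegetal and whole-embryo library at 8-cell and 12 hpf for Rnf128, TRIM4, Rnf7-a, RNF7-c, RNF41-d, Fbxo16, FBXW7-a, CDC34 and TRIM2-c. Of these 9, only Rnf128 separates the hemispheres at 8-cell (1.15 to 3.81 RPKM animal, 38.7 to 53.5 RPKM vegetal), and all but CDC34 separate them at 12 hpf.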

How the data were processed

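RNA was extracted with TRIzol and sequenced from TruSeq libraries, per the labels' protocols; HISAT2 is named in the submitters' processing notes, without a version, and the counting and annotation steps are not given in the sources used here. The values are RPKM per unigene in each library, as deposited by the authors in 1 table per set. Counts of reads and the percent of them aligned, for the staged libraries, came from the deposited sequencing table. The staged column headed 2 hpf was taken as the 2.5 hpf stage of the labels. The deposited files also hold smaller tables, and 148 columns of per-library values in them, headed with the names of the same libraries, were not used. No gene lengths or read counts per gene were used, so no counting interval is given; in the hemisphere set the steps of low values gave relative depths of 0.815 to 1.43. No 2 libraries held identical values.

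Levels were tested as log2(RPKM + 1) in limma 3.58.1 (R 4.3.3), with a mean for each group, a variance trend and moderated tests, over all libraries of a set (43 with 28 residual degrees of freedom, or 24 with 18). Unigenes needed 1 RPKM in 2 staged or 4 hemisphere libraries, which left 18704 with 148 members and 15697 with 147 members, and p-values were adjusted over all of them. A member can pass that filter through the group in which it is high. The script was tested on simulated data. Tables and plots used Python 3.11.15, pandas 2.3.3 and matplotlib 3.10.9.

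Members, families and lists were chosen with earlier results of these data known. Named were, in each of 7 comparisons of 2 groups, up to 8 members per direction with the largest change past the threshold and no overlap, plus a fixed set of role-defining symbols. MARCH6-a, March5-a, RNF126 in tadpoles, Rnf138, TRIM25 and Trim33-b in juveniles and Trim54, Fbxo40 and Rnf41-j at 12 hpf were added after their values were seen. Alternatives were another pseudocount, no filter, quantile normalization, the compared libraries only, leaving out each library, the replicate number as a block and, added after seeing the data, sequencing lane and the "Re" mark as terms. Hemisphere libraries of the same number deviated together (lowest correlation 0.315 at 8-cell and 0.144 at 12 hpf, over members and all other unigenes tested, against medians of -0.17 and -0.1 for different numbers), so the numbers were taken to pair them in the block alternative. The main hemisphere fit, with its counts, standard errors and p-values, left that pairing out. Results for 1 gene are not reported here.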

Additional observations from a re-analysis of the deposited data

Results flagged for a closer look

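Among 44 groups of 4 hemisphere libraries that carry a called member, 8 held a library whose gap to its nearest neighbour was above Dixon's 95% critical share of the range. Chance gives about 1 in 20 such groups, but for 4 of the 8 (TRIM4, RNF41-d, Rnf128 and TRIM2-b) the other 3 libraries were at 0, so any value above 0 stands apart there and that share has no bearing. In the animal hemisphere at 12 hpf these were TRIM4 at 0.102 RPKM and RNF41-d at 0.323 RPKM, each with the other 3 libraries at 0. Rnf128 at 0.336 RPKM had the same form. Trim33-b stood out high at 18.4 RPKM, CUL5 high at 6.63 RPKM and FBXW7-a low at 8.29 RPKM in that group. In the vegetal hemisphere at 12 hpf, number 3 stood apart for TRIM2-b at 0.0973 RPKM and for Cdc27-a at 17.7 RPKM.

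The vegetal minus animal difference itself changed between 8-cell and 12 hpf, by the interaction test in limma, for 18 of 21 members examined, which were chosen for their hemisphere values; over all members tested it was 37 of 147 (25.2%), against 35.6% of all unigenes. It moved towards the vegetal side for TRIM4 (log2 difference 5.72), Rnf7-a (4.27), RNF7-c (3.98, listed at 0 in the animal hemisphere at 12 hpf), RNF41-a (3.82), Fbxo16 (3.54), RNF41-d (3.52) and TRIM71-a (2.99). Smaller moves to that side were those of FBXO36 (2.64), Ube3a-b (2.39), FBXW7-a (2.18), Rbx1-a (1.395), CUL5 (1.34) and FBXW7-b (1.15). It moved towards the animal side for Rnf128 (-2.31), TRIM2-c (-2.28), Cdc27-a (-1.95), CDC34 (-1.70) and Trim33-b (-1.30). All unigenes had a median of 0.25 in that test, and -0.20 after quantile normalization. The calls of Ube3a-b (adjusted p = 0.27) and CUL5 (adjusted p = 0.17) were lost with quantile normalization, that of Rnf128 with a pseudocount of 0.1 RPKM (adjusted p = 0.694), and that of FBXW7-b under both of these alternatives, without animal number 6 and without vegetal number 4 or 6 at 12 hpf. The call of CDC34 was lost without animal number 4, vegetal number 4 or vegetal number 5 at 12 hpf and without animal number 5 at 8-cell, so that 17 of 21 alternatives passed. Rbx1-a passed under 11 and Trim33-b under 9 of the 21, and most of the others left out a single library of either hemisphere.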

How the results depend on the processing

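Of 157 calls of named members, 78 held under every alternative. Of 304 results, 11 changed sign under an alternative and passed in that fit or in the fit as reported. Sign changes of results that passed in neither fit were not counted. For the 52 members that differed between egg and 32-cell, quantile normalization left 31, the compared libraries alone 27 and lane as a term 4, and leaving out 1 library gave 26 to 60. From 32-cell to 1.5 hpf the compared libraries alone gave 63, 45 higher and 18 lower, and leaving out 1 library 22 to 26. Lane as a term gave 76 for tadpole against egg (41 to 60 without 1 library) and 40 for juvenile against hatched larva, where the compared libraries alone gave 38 (46 to 78). Females against males gave 60 with the compared libraries alone (85 to 102).

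Signs changed for UBE3A-a from egg to 32-cell with quantile normalization (0.0345 against -1.07 on the log2 scale), and for Anapc11 (1.74) and FBXW7-b (-0.997) from egg to tadpole with lane as a term. With lane as a term the juvenile differences of CUL1-a (2.48), Cul1-b (0.58), CUL1-c (2.46), CUL3 (0.22) and HUWE1-a (2.18) changed sign. With quantile normalization those of Ube3a-b in juveniles (-0.0667) and of UBE3A-a (-0.915) and Ube3a-b (-0.38) between females and males did. The causes were not tested.

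At 12 hpf the count was 44 to 52 without 1 library and 30 to 41 for the difference between stages. The replicate block gave 1 member at 8-cell, 71 at 12 hpf and 46 for the difference between stages, and changed no other named call than those given. Lanes and stages overlap too little to be told apart, and RPKM near 0 carry few reads.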

Other observations

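TRIM65 was listed at 0 at the 8-cell stage in the library numbered 5 of the animal hemisphere, of the vegetal hemisphere and of the whole embryo. The other 9 libraries of that stage read 46.1 to 121 RPKM. In the staged set its level was also 0 in both adult males.

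TRIM25 differed between the sets near the end of development. Staged juveniles at 10 hpf read 9.34, 12.4 and 12.2 RPKM, whereas whole embryos at 12 hpf read 0.766, 0.794, 2.14 and 0.621 RPKM, the animal hemisphere 0, 0.226, 0 and 0.24 RPKM and the vegetal hemisphere 0.208, 0.442, 1.36 and 0.512 RPKM. The sets were normalized separately. TRIM71-a, by contrast, read 2.34, 1.08 and 1.92 RPKM in juveniles and 2.99, 2.10, 3.20 and 2.68 RPKM in whole embryos at 12 hpf.

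For TRIM2-c and RNF7-c the whole embryos at 12 hpf did not lie between the hemispheres in every library. Whole embryos read 22.4, 40.4, 49.5 and 24.4 RPKM of RNF7-c, all above the highest vegetal library (19.3 RPKM), and 99.2, 124, 72.7 and 62.4 RPKM of TRIM2-c, where the animal hemisphere read 58.5, 89.8, 113 and 53.5 RPKM.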
